A study of Rattus norvegicus with 96 samples.

Results

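Expression in alcohol dependence was compared over the whole set of dissected brain regions at once. All arrays of non-dependent rats were set against all arrays of dependent rats, with the brain region as a block, so that a gene stands out when it differs the same way in many regions. Of the 96 arrays of the series, 64 come from these groups, and 60 of them were used, 29 of non-dependent and 31 of dependent rats. The 8 regions are the medial prefrontal cortex (mPFC), the core and shell of the nucleus accumbens (NAcC, NAcSh), the dorsolateral and ventral bed nucleus of the stria terminalis (dlBNST, vBNST), the central and basolateral amygdala (CeA, BLA) and the ventral tegmental area (VTA). Non-dependent rats were adult male Wistar rats that pressed a lever for unsweetened alcohol (10%) for 4 weeks. Dependent rats drank in the same way and were then exposed to intermittent alcohol vapor for 4 weeks, after which both groups were tested again for drinking. The labels give a higher intake to the vapor-exposed rats, so vapor and later drinking cannot be told apart in this comparison. The drinking rats were killed in protracted abstinence, 3 weeks after their last drinking session and, in dependent rats, the last vapor. Alcohol naive rats were killed along with them. The 32 arrays of alcohol naive rats of the same age serve as a reference and enter none of the main tests. Each group is described as 4 rats that gave all 8 regions, so the regions of a group are not independent replicates.

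Alcohol acts on the brain in part by strengthening inhibition through GABA-A receptors and weakening excitation through glutamate receptors. With repeated intoxication and withdrawal, the reward circuit of the VTA and nucleus accumbens and the stress circuit of the extended amygdala, which includes the CeA and the bed nucleus, adapt to the drug. These adaptations outlast the last exposure, and protracted abstinence is the period in which the wish to drink and the response to stress stay raised.

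The deposited values are log2 signals made by GCRMA, which corrects each probe for background binding and brings all arrays to 1 distribution of intensities. A difference of 1 is thus a change of signal by a factor of 2. The 4 arrays left out stood apart by the bacterial hybridization controls, whose mean was 10.85 to 14.31 on them and 7.44 to 10.42 on the other 92 arrays of the series. The 4 were CeA non-dependent number 2, BLA non-dependent number 3, VTA non-dependent number 2 and vBNST dependent number 1. Actb, a gene of all cells, read 4.46, 11.07, 10.76 and 11.67 on them in this order and 9.14 to 11.97 on the other 92 arrays. It was thus low only on the CeA array. Several listed markers of the regions were highest where the labels put them, and others did not separate the regions. Pitx3, of dopamine neurons, read 2.10 in the VTA and 1.95 to 2.17 elsewhere, and Gad1, of GABA neurons, 13.09 to 13.99 throughout. Crh, a stress peptide, read 8.62 in the dlBNST, 7.71 in the vBNST, 8.33 in the CeA and at most 5.28 elsewhere. Slc6a3, the dopamine transporter, read 10.50 in the VTA and 2.81 to 3.14 in the other 7 regions. Drd1, the D1 dopamine receptor, read 11.39 in the NAcC and 11.20 in the NAcSh and at most 7.75 elsewhere. Slc17a7, the vesicular glutamate transporter of cortical neurons, read 11.20 in the mPFC, 7.56 in the BLA and at most 3.52 elsewhere.

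The replicate numbers did not follow rats from region to region. Pxmp4, a peroxisomal membrane protein, was either high or low on each array, with no value between 5.52 and 6.42 on the 92 arrays. In naive rats, exactly 1 of 4 arrays was low in each of the 8 regions. It was number 2 in the mPFC, NAcC, dlBNST and CeA, number 3 in the NAcSh, vBNST and BLA, and number 4 in the VTA. Over all genes tested, arrays of 1 group that shared a number but not a region had a mean correlation of their deviations of -0.0059 (197 pairs), against 0.0020 for arrays with other numbers (590 pairs). The arrays of each group were therefore also linked across regions by the 150 probe sets that varied most within groups, in a way that does not use the difference between groups. Linked arrays had a mean correlation of 0.094, and arrays of 1 group not linked -0.031. The arrangement was picked for the highest correlation in these 150 probe sets, so a higher value for linked arrays is partly built in. This linking was chosen after the data were seen, and it is less certain in some places. For dependent arrays the best arrangement had a correlation of 0.337 in the mPFC and 0.411 in the VTA, against 0.289 and 0.372 for the next, and for non-dependent arrays of the BLA 0.396 against 0.285. Pxmp4 was high on 2 of 4 dependent arrays in the NAcC, NAcSh, dlBNST and BLA, but on 0 of 4 in the mPFC and on 1 of 4 in the CeA and VTA, so that for these 3 regions the linked dependent arrays did not share its state. C10h5orf15, another gene with such states, was high on 2 of 4 naive arrays in each of the 8 regions. In non-dependent rats it was high on 3 of 4 arrays in the mPFC, NAcC and NAcSh but on 2 of 4 in the dlBNST and vBNST. The linked set C of non-dependent arrays was high in 5 regions (6.30 to 7.44) and low in the dlBNST, vBNST and BLA (2.70 to 3.40), so the doubt extends to these regions. No linking can match such unequal counts between regions. If these states mark a rat, the 8 regions of a group may not all come from the same 4 rats, or some array labels may differ. Neither was tested. Both genes are among the 150 probe sets used for linking. The 4 linked sets of arrays of a group are called A to D below, with 1 array per region in each, and stand for the rats only as far as this linking holds.

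Few genes differed between non-dependent and dependent rats over the 8 regions, and their number depended on which arrays were taken to belong together. Of 8734 genes tested, 108 (1.24%) had a limma adjusted p under 0.05 when arrays of 1 number were a random block, 40 higher (0.458%) and 68 lower (0.779%) in dependent rats. The correlation estimated within numbers was -0.022, which made this fit less strict than taking all arrays as independent. With arrays independent, 45 genes (0.515%) were called, 18 higher (0.206%) and 27 lower (0.309%). With linked arrays as the block, 36 genes (0.412%) were called, 15 higher (0.172%) and 21 lower (0.24%), and all 36 were also called in the other array fits. The correlation estimated within linked sets was 0.0096. It was 1 value for all genes, so this fit came close to taking arrays as independent, also where linked arrays resembled each other. When each linked set was averaged over its regions and the 4 averages of each group were compared, 0 genes passed the adjusted threshold, with a lowest limma adjusted p of 0.307. At an unadjusted p under 0.05, that test held 855 genes (9.79%). Averages over numbers gave 8 genes (0.0916%), but these do not stand for rats. Without the mPFC, CeA and VTA, where the linking of dependent arrays was least certain, 4 genes were called with the linked block, and without the dlBNST, vBNST and BLA, where non-dependent set C changed its state, 8. The count of 108 was 32 without the dlBNST and 7 with the CeA array of low rat signal put back. The differences below are thus differences between 2 groups of arrays, and for no single gene was the difference between the averages of 4 and 4 linked sets past the adjusted threshold.

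**Figure D1:**
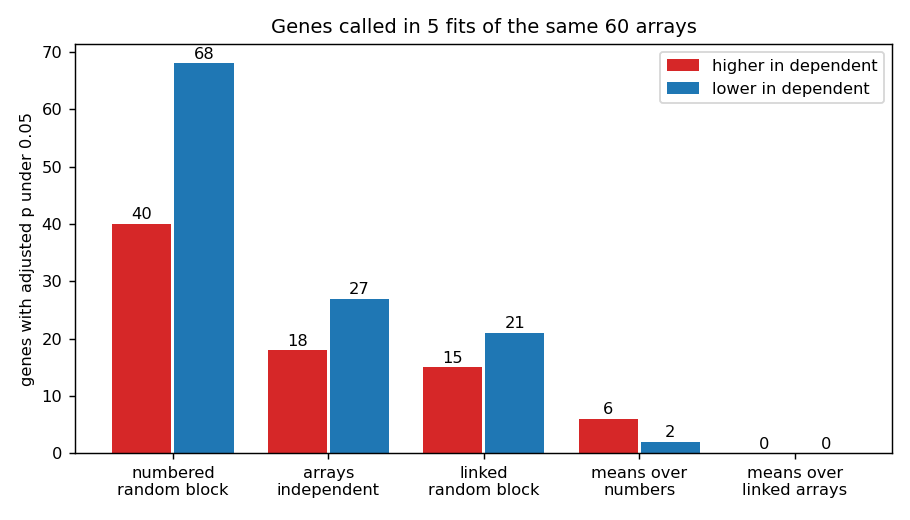
Number of genes with a limma adjusted p under 0.05 (y axis) in 5 fits of the same 60 arrays (x axis), in red for genes higher and in blue for genes lower in dependent rats. The counts go down from 40 and 68 with the numbered random block to 15 and 21 with the linked random block and to 0 and 0 for averages over linked arrays.

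The called differences were small, and the fit itself favours genes that differ the same way in many regions. Their size ran from 0.11 to 0.74 on the log2 scale, with a median of 0.26, while the median difference of all genes tested was -0.015. Of the 108 genes, 47 had the same sign in all 8 regions, 16 higher and 31 lower. Among all genes tested, 81 (0.927%) were higher and 131 (1.5%) lower in 8 of 8 regions. The calls rest on the same values, so the shared sign is no separate support for them. The averages of the linked sets did not overlap between the groups for 59 of the 108 genes and for 18 of the 36, against 483 of all genes (5.53%), and the same difference between groups enters the fits and this count. In bulk tissue, fewer cells of a type and less RNA per cell cannot be told apart.

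Among the genes higher in dependent rats, Gabrg1 had the largest difference. It encodes the gamma-1 subunit of the GABA-A receptor, the chloride channel that alcohol and benzodiazepines act on. Its level over the regions was 5.53, 6.01, 5.83 and 5.39 in the linked sets A to D of non-dependent rats and 6.21, 6.48, 6.69 and 6.29 in those of dependent rats. The groups did not overlap, and all 4 dependent sets were higher. The difference was 0.74 ± 0.13 (SE, adjusted p = 6.09e-04 with the numbered block and 0.00457 with the linked block, limma). It was largest in the dlBNST (1.38), VTA (1.08) and CeA (1.04) and 0.043 in the mPFC, where the signal was lowest. In the CeA, the 3 non-dependent arrays read 6.17, 6.39 and 6.67 and the 4 dependent arrays 7.28, 7.41, 7.49 and 7.65. In the dlBNST, the non-dependent arrays read 6.54, 6.85, 6.92 and 7.99 and the dependent arrays 7.97, 8.45, 8.48 and 8.90, so that 1 non-dependent array lay beside the lowest dependent one. Naive sets ran from 5.60 to 6.97 and overlapped both groups. Of the 6 GABA-A receptor subunits tested, Gabrg1 alone was called, and the median difference of the 6 was 0.041.

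Rorb, Runx1t1 and Xiap act in the control of transcription and cell survival. Rorb, an orphan nuclear receptor of clock and cortical neurons, read 6.16, 6.53, 7.19 and 6.58 in the non-dependent and 7.17, 7.17, 6.97 and 7.67 in the dependent sets. The difference was 0.63 ± 0.11 (SE), but 1 non-dependent set reached the dependent level, and linked arrays resembled each other in this gene, with a correlation of 0.484, which the linking favoured, since Rorb is 1 of its 150 probe sets. Rorb was higher in 7 of 8 regions, by 1.22 in the dlBNST and 1.01 in the vBNST. Runx1t1, a transcriptional corepressor, was 7.35 to 7.65 in non-dependent and 7.69 to 8.07 in dependent sets, without overlap. Xiap, which inhibits caspases, was 7.05 to 7.21 in non-dependent and 7.54 to 7.83 in dependent sets, and naive sets lay at 6.96 to 7.38. Its difference of 0.48 ± 0.094 (SE, adjusted p = 0.00203 with the numbered and 0.013 with the linked block, limma) was uneven, from -0.14 in the vBNST to 1.62 in the VTA, where the non-dependent arrays read 6.31, 6.03 and 6.05 and the dependent arrays 7.54, 7.75, 8.06 and 7.66. The adjusted p of the group by region interaction for Xiap was 0.0698.

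The other leading genes higher in dependent rats have various roles. Cntn3, an adhesion molecule of the contactin family, read 3.62, 3.72, 3.77 and 4.36 in non-dependent and 4.30 to 4.37 in dependent sets, so that the difference of 0.47 ± 0.081 (SE) came from 3 of the 4 non-dependent sets. The mean of its non-dependent arrays over the regions, 3.86, was under the minimum of 4, so that Cntn3 was tested only because of its level in dependent rats, 4.33. Gpc4, a heparan sulfate proteoglycan, was 6.74 to 7.19 in non-dependent and 7.14 to 7.43 in dependent sets. Esyt2, which ties the endoplasmic reticulum to the plasma membrane, was 9.07 to 9.52 and 9.57 to 9.81, a narrow gap without overlap. Dnal1, a light chain of axonemal dynein, was 6.81 to 7.69 and 7.63 to 7.98. Cnppd1, whose role is not well described, was 3.59 to 4.23 and 4.09 to 4.33 and, with group means of 3.80 and 4.21, was likewise tested only because of the dependent rats. Of the 108 called genes 5 passed the minimum in this way, through the higher group alone, and of all genes 62. Kiaa1671, also of unclear role, was 4.74 to 4.97 and 4.95 to 5.19. In Gpc4, Dnal1, Cnppd1 and Kiaa1671, 1 non-dependent set of the 4 reached into the dependent range.

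**Figure D2:**
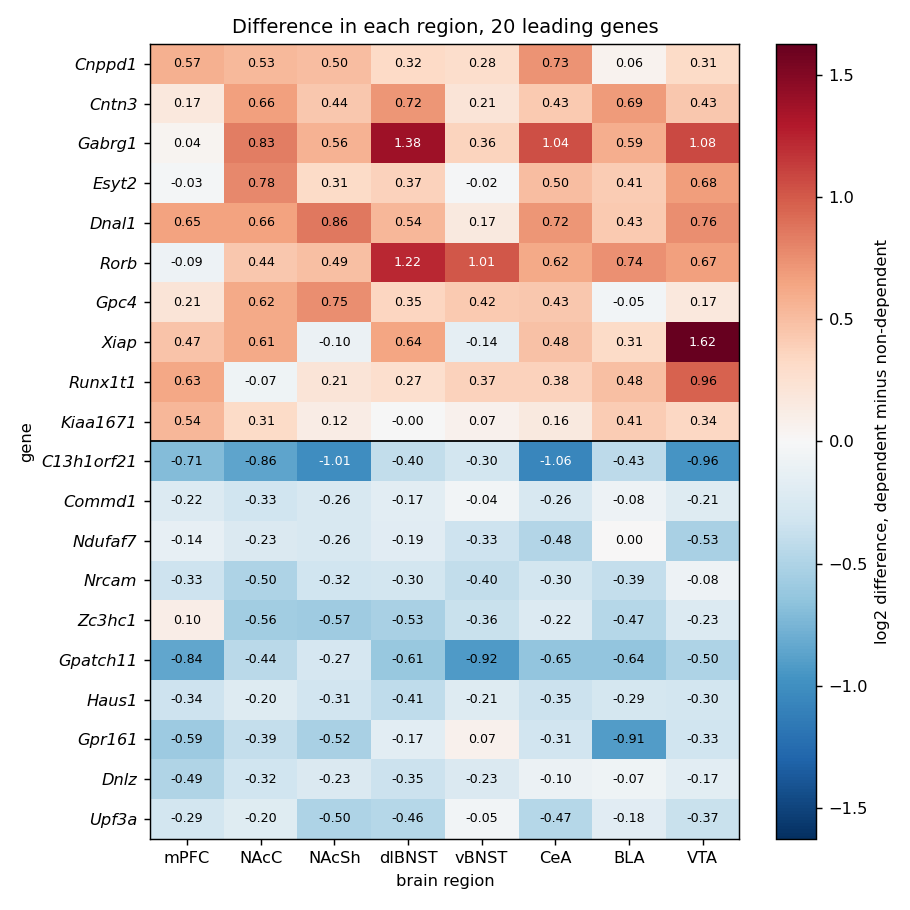
Log2 difference, dependent minus non-dependent, in each brain region (x axis) for the 10 genes with the smallest p in each direction (y axis), as colour and number. Most cells of a row share the sign of the gene, and the strongest are Xiap in the VTA (1.62), Gabrg1 (1.38) and Rorb (1.22) in the dlBNST and C13h1orf21 in the CeA (-1.06).

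The gene with the smallest p of all was lower in dependent rats. C13h1orf21, an open reading frame of unknown role, read 10.08, 9.82, 9.73 and 9.61 in the non-dependent sets and 9.43, 9.04, 8.96 and 8.95 in the dependent sets. The groups did not overlap, and the gene was lower in 8 of 8 regions, by 0.30 in the vBNST to 1.06 in the CeA. The difference was -0.72 ± 0.10 (SE, adjusted p = 3.35e-05 with the numbered and 4.83e-04 with the linked block, limma). Naive sets lay at 8.44 to 9.502, nearer the dependent than the non-dependent rats. In the CeA, the 3 non-dependent arrays read 9.12, 9.82 and 9.86, the 4 dependent arrays 8.36 to 8.62 and the naive arrays 8.57 to 8.99. Over all called genes, the naive level lay nearer to that of dependent rats for 13 of the 40 higher and 20 of the 68 lower genes, and for 3545 of the 8734 genes tested.

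Commd1 is known for a role in copper handling and in the control of NF-kappa-B. It read 10.89, 10.83, 10.88 and 10.84 in non-dependent and 10.69, 10.65, 10.54 and 10.75 in dependent sets, and 10.75 to 10.77 in the naive sets. The groups did not overlap, and the difference of -0.20 ± 0.031 (SE) was small and negative in 8 of 8 regions, from -0.041 to -0.33. Ndufaf7, an assembly factor of respiratory complex I, was 7.87 to 7.95 in non-dependent and 7.55 to 7.77 in dependent sets. Dnlz, a zinc-finger partner of the mitochondrial chaperone Hspa9, was 4.46 to 4.68 and 4.29 to 4.37, and Upf3a, of the decay of messages with early stop codons, 9.09 to 9.25 and 8.76 to 9.03, all without overlap. Zc3hc1, a protein of the nuclear pore basket, was 5.97 to 6.14 and 5.41 to 5.99. Haus1, of the augmin complex of the spindle, was 4.18 to 4.39 and 3.77 to 4.25, close to the minimum mean level of 4 set for testing. Gpr161, a receptor of the primary cilium, was 6.71 to 7.22 and 6.48 to 6.88. Gpatch11 was 6.93 to 7.19 and 6.00 to 6.94, with dependent sets B and D at 6.08 and 6.00 and A and C at 6.94. In Zc3hc1, Haus1, Gpr161 and Gpatch11, 1 non-dependent set of the 4 lay within the dependent range, and in Gpatch11 the difference of -0.60 ± 0.11 (SE) rested on 2 of the 4 dependent sets.

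**Figure D3:**
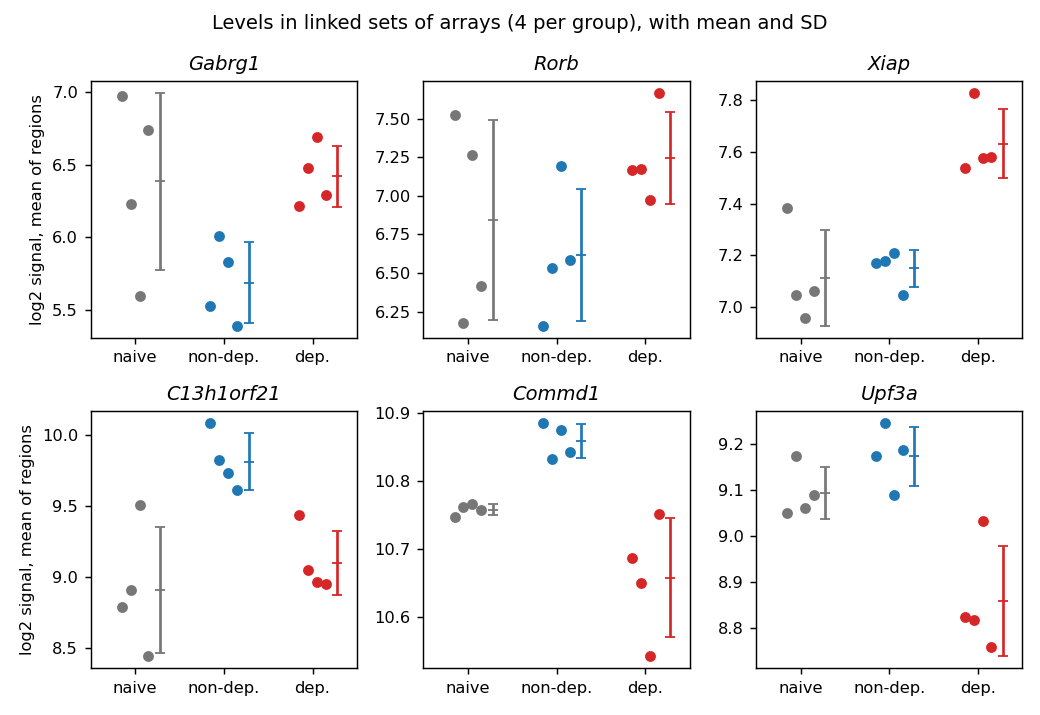
Levels of 6 of the leading genes in the linked sets of arrays, 4 points per group. The y axis gives the log2 signal averaged over the regions, the x axis the group (naive, non-dependent, dependent), and bars give the mean and SD; in Gabrg1, Xiap, C13h1orf21, Commd1 and Upf3a the non-dependent and dependent points are apart, and in Rorb they overlap.

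Other probe sets of a gene did not always move with the one that was used. Among the 108 called genes, 30 had 39 further probe sets above the minimum level, of which 24 had the same sign and 15 the opposite sign. Of these, 9 and 5 had an unadjusted p under 0.05. Nrcam, a cell adhesion molecule of axons and nodes of Ranvier, was the clearest case. On its brightest probe set, the one used, the difference was -0.33 ± 0.060 (SE), whereas on the other 2 it was 0.33 ± 0.042 (SE) and 0.32 ± 0.052 (SE), with limma unadjusted p of 2.49e-10 and 8.71e-08. On the first of these 2, the non-dependent sets lay at 9.99 to 10.18 and the dependent sets at 10.33 to 10.46. On the second they lay at 9.81 to 10.09 and 10.21 to 10.40, again without overlap. On the brightest probe set, non-dependent sets A to C lay at 10.79 to 10.93 and set D at 10.29, below all dependent sets (10.32 to 10.51). Naive sets overlapped both groups on all 3 probe sets, at 10.02 to 10.50, 9.97 to 10.44 and 10.30 to 10.82, with the brightest last. Linked arrays resembled each other in the probe set used, with a correlation of 0.585, against a median of 0.0018 over all genes. The amount of Nrcam RNA as a whole thus had no single direction on these arrays, and which transcripts the probe sets read was not tested. Sv2b, a synaptic vesicle protein, showed the same kind of split, with -0.33 on the probe set used and 0.35 on another. The leading genes Esyt2 (-0.059), Dnal1 (-0.040) and Gpr161 (0.094), and also Chd4 (-0.028), had a further probe set of opposite sign above the minimum level. Each of these probe sets had a limma unadjusted p above 0.05. Runx1t1 and Ndufaf7 had further probe sets of the same sign only.

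**Figure D4:**
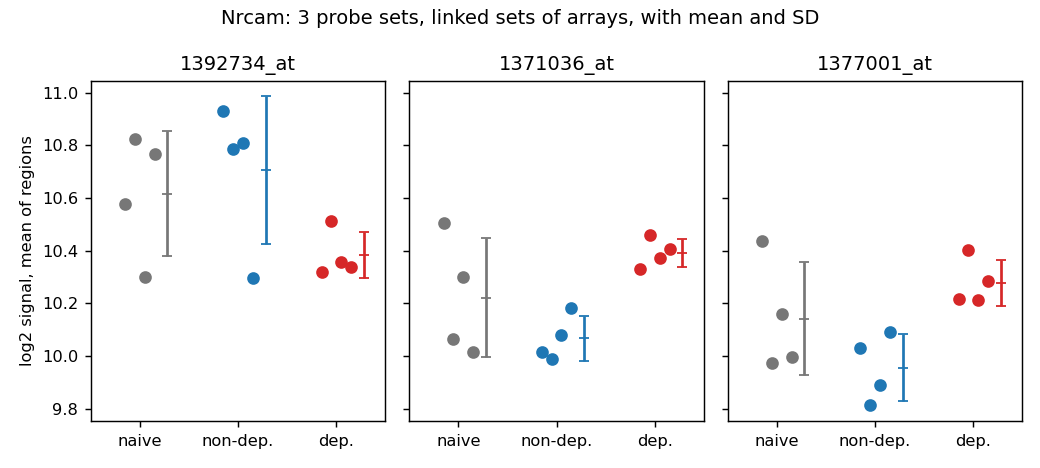
Nrcam on its 3 probe sets above the minimum level. The y axis gives the log2 signal averaged over the regions, each point is 1 linked set of arrays, and bars give mean and SD for naive, non-dependent and dependent rats. On the probe set used (left panel), 3 of 4 non-dependent sets lie above the dependent sets, while on the other 2 probe sets all non-dependent sets lie below them and naive sets overlap both.

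Resemblance between linked arrays was more common among the called genes than among all genes. It exceeded a correlation of 0.3 in 21 of the 108 called genes (19.4%) and in 347 of all 8734 (3.97%). Without the 54 genes whose probe sets took part in the linking, among them Gabrg1, Rorb and Setd1b of the called genes, it did so in 19 of 105 (18.1%) and 306 of 8680 (3.53%). Gpatch11 (0.507), Rorb (0.484), Cnppd1 (0.421), Cntn3 (0.364) and Haus1 (0.352) belong to these. For such genes the 60 arrays hold less than 60 independent values, and the part that differences between single rats have in the group difference was not tested. The linked block applied 1 correlation, 0.0096, to all genes and does not allow for this. Cntn3 and Rorb had a limma adjusted p of 0.0046 and 0.0047 with it. Their exact permutation p over the linked sets was 0.114 each. The correlation of linked arrays was near 0 for Xiap (-0.059), Dnlz (-0.0089) and Upf3a (-0.011), and 0.064 for Gabrg1. Since the linking is uncertain, a value near 0 does not show that the arrays of 1 rat are independent for these genes.

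Subunits of the respiratory chain and the ATP synthase, which make ATP in mitochondria, leaned to lower levels in dependent rats. Of the 79 listed, 72 were tested, and 4 were called, all lower: Ndufb2 and Ndufb6 of complex I and Cox6a1 and Cox5b of complex IV. None of the 4 kept its call with arrays independent or with the linked block, where the limma adjusted p was 0.0802, 0.109, 0.101 and 0.138 in the same order. At an unadjusted p under 0.05, 27 of the 72 were lower and 0 higher, against 861 lower (9.86%) and 497 higher (5.69%) of all genes tested. The difference was below 0 in 71 of the 72, with a median of -0.075, and in 5108 (58.5%) of all genes, with a median of -0.015. In complex I, 17 of 33 subunits had an unadjusted p under 0.05 on the lower side, in complex IV 4 of 12, in the ATP synthase 3 of 16, in complex III 2 of 7 and in complex II 1 of 4. With the linked block, 22 of the 72 were lower at an unadjusted p under 0.05, against 613 (7.02%) of all genes. Single differences were small. Ndufb2 read 11.69, 11.82, 11.76 and 11.75 in non-dependent and 11.64, 11.54, 11.60 and 11.53 in dependent sets, a difference of -0.18 ± 0.043 (SE). Cox6a1 read 10.65 to 10.95 and 10.33 to 10.73, with overlap, and a difference of -0.29 ± 0.074 (SE). Averaged over the 72 subunits, the non-dependent sets lay at 10.16 to 10.26, the dependent sets at 10.09 to 10.15 and the naive sets at 10.17 to 10.27. The naive level was above the dependent level in 68 of the 72 subunits and above the non-dependent level in 38.

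The lean was not even over the brain. The median difference of the 72 subunits was -0.24 in the VTA, where 68 of 72 were below 0, -0.10 in the dlBNST (62 of 72), -0.074 in the CeA (58 of 72) and -0.065 in the BLA (53 of 72), where the median of all genes was 0.015. In the mPFC, NAcC, NAcSh and vBNST it was -0.017 to -0.031, with 39 to 43 of 72 below 0. The 18 myelin and oligodendrocyte genes tested were also lowest in the VTA (median -0.27, 15 of 18 below 0), dlBNST (-0.15, 16 of 18) and CeA (-0.15, 16 of 18), and were higher in the NAcC (0.11, 16 of 18 above 0) and NAcSh (0.11, 13 of 18). Their mean level was 8.04 to 8.14 in non-dependent, 7.95 to 8.21 in dependent and 8.18 to 8.32 in naive sets. Their part in the lean of the subunits was not tested. Without the VTA, 15 subunits in place of 27 were lower at an unadjusted p under 0.05, and the median was -0.054. Under quantile normalization and median scaling it was -0.066 and -0.081, and with the RNA quality values as covariates -0.078. With the 4 left-out arrays put back, it was 0.082, beside 0.086 for all genes tested.

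**Figure D5:**
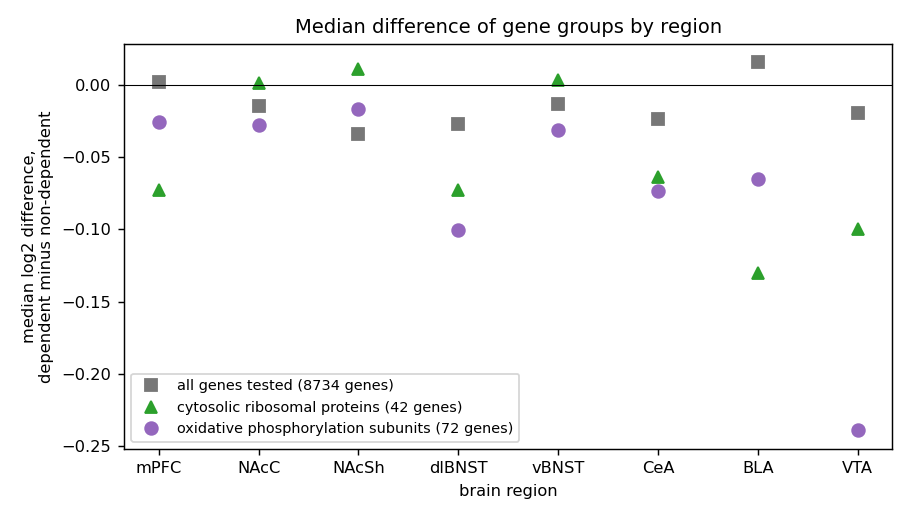
Median log2 difference, dependent minus non-dependent (y axis), in each brain region (x axis) for 72 oxidative phosphorylation subunits, 42 cytosolic ribosomal proteins and all 8734 genes tested. The subunits are lowest in the VTA (-0.24) and dlBNST (-0.10) and near the median of all genes in the NAcC, NAcSh and vBNST.

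Other gene groups held few called members. Of 42 cytosolic ribosomal proteins 0 were called. At an unadjusted p under 0.05, 5 were lower and 0 higher, a share on the lower side close to the 9.86% of all genes, and the median was -0.051. The difference was below 0 in 40 of the 42, against 58.5% of all genes, so a lean to lower levels was not particular to the respiratory subunits. In the BLA (-0.13, 38 of 42 below 0) and mPFC (-0.073) the ribosomal median was lower than that of the subunits (-0.065 and -0.026). Among 36 chromatin remodellers and helicases, Chd4, the ATPase of the NuRD complex, was called and higher. It read 7.96 to 8.13 in non-dependent and 8.26 to 8.39 in dependent sets, with a difference of 0.30 ± 0.076 (SE, adjusted p = 0.0287 with the numbered and 0.108 with the linked block, limma). At an unadjusted p under 0.05, 5 of the 36 were higher and 0 lower, against 5.69% higher and 9.86% lower of all genes. The median of the 36 was 0.036, and 0.0088 without the VTA, the region in which 32 of the 36 were above 0. Among 22 genes of DNA methylation and histone deacetylation, Gadd45b, which takes part in DNA demethylation, was called and lower, at 4.08 to 4.29 and 3.90 to 3.99. With group means of 4.15 and 3.94, it was tested only because of the non-dependent rats. Ahsa1, an activator of Hsp90, was the only called member of 21 heat shock proteins and co-chaperones, with a difference of -0.14. Of 23 synaptic vesicle genes, Sv2b alone was called, and of 14 clock genes Rorb alone. Gadd45b, Ahsa1, Sv2b and Chd4 were not called with arrays independent or with the linked block, where the limma adjusted p was 0.139, 0.114, 0.0788 and 0.108. Of 19 genes of stress and opioid peptides, 15 glutamate receptor genes, 13 glucocorticoid-induced genes, 13 immediate early genes, 40 splicing factors, 28 potassium channel genes and 12 genes of ethanol and aldehyde metabolism, 0 were called. At an unadjusted p under 0.05, these groups held 3, 2, 1, 1, 7, 5 and 0 genes, shares near or under the 15.5% of all genes tested. They include the neurokinin receptor gene Tacr1 (0.19), the stress-induced mTOR inhibitor Ddit4 (-0.48) and the channel genes Kcna2 (0.37) and Kcna6 (-0.28).

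Markers of other cell types were followed as well. Rsph1, of motile cilia, was called and lower, at 4.92 to 5.43 in non-dependent and 4.62 to 4.82 in dependent sets, without overlap. It was not called with arrays independent or with the linked block (limma adjusted p = 0.0832 and 0.114). It is 1 of 3 tested genes of 14 listed for choroid plexus and ependyma, of which Ttr differed by -0.19 and Otx2 by 0.015, neither called. The mean of these 3 was 4.94 to 5.22 in non-dependent and 4.78 to 4.90 in dependent sets. Of 4 blood cell genes, the hemoglobin genes Hbb (-0.26) and Hba-a3 (-0.11) had an unadjusted p under 0.05, and the means of the 4 genes overlapped, at 4.81 to 4.93 and 4.70 to 4.998. Of 9 microglia genes 0 were called, with Aif1 at -0.21 and C1qa at 0.18 and means of 7.11 to 7.43 and 6.98 to 7.26. Their median difference was -0.12. At an unadjusted p under 0.05, 2 were lower and 1 higher, against 9.86% lower and 5.69% higher of all genes. The median ran from -0.21 in the BLA to 0.047 in the vBNST, the only region where it was above 0. Of 18 myelin, 18 astrocyte and 10 endothelial and mural cell genes 0 were called, with 1, 2 and 3 at an unadjusted p under 0.05 (15.5% of all genes). The part of these cells in the results above was not tested.

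Nr3c1, the glucocorticoid receptor, is the main subject of the study, which also followed the coactivator Psip1. Nr3c2, the mineralocorticoid receptor, binds the same hormone. Their differences over the 8 regions were close to 0 and smaller than their standard errors. Nr3c1 was 10.76 to 10.90 in non-dependent and 10.79 to 10.87 in dependent sets, a difference of 0.0020 ± 0.047 (SE). Nr3c2 was 9.31 to 9.48 and 9.24 to 9.51, a difference of -0.0072 ± 0.056, and Psip1 11.86 to 11.998 and 11.88 to 11.95, a difference of -0.0051 ± 0.038. The limma adjusted p was 0.988, 0.968 and 0.966. Between regions Nr3c1 ran from -0.25 to 0.25, Nr3c2 from -0.34 to 0.19 and Psip1 from -0.27 to 0.37. The interaction adjusted p of Psip1 was 0.229 (limma). The study inferred activity from predicted target genes in single regions and reported only slight increases of Nr3c1 expression there. RNA averaged over 8 regions is another measure and does not test that activity. Among 14 tested genes of the receptors and their modulators named by the study 0 were called, and Nfkb1 (0.20), Ywhah (-0.12) and Smarca4 (0.11) had an unadjusted p under 0.05, as did 15.5% of all genes.

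Because the study concerns the glucocorticoid receptor, promoters were searched for AGAACA, the core hexamer of its binding elements, and for TGACGTCA, the cAMP response element, on both strands from 250 bases before to 50 bases after the gene start (RefSeq, GRCr8). The hexamer was in the promoters of 6 of 34 genes called higher (17.6%), 8 of 59 called lower (13.6%), 7 of 65 oxidative phosphorylation subunits (10.8%) and 867 of 7324 genes tested (11.8%). The cAMP response element was in 1 of 34 (2.94%), 3 of 59 (5.08%), 3 of 65 (4.62%) and 252 of 7324 (3.44%). Of the 16 leading genes with a promoter in the reference, Commd1 alone held the hexamer upstream of its start. The 250 upstream bases of Commd1 lie on the minus strand at chr14:101185640-101185889, and the capitals mark the hexamer, which reads on the opposite strand and begins 107 bases before the start.
Commd1: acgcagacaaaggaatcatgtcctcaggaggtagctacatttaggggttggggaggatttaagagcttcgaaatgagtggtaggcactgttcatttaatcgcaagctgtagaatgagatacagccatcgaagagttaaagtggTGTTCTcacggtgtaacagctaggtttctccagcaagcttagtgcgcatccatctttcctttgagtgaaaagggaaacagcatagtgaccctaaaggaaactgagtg

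A second question was where the difference between the groups changed from region to region. The group by region interaction had an adjusted p under 0.05 in 16 genes (0.183%) and in none of the 108 called genes. In 14 of the 16 the VTA had the largest difference, 13 times higher and once lower in dependent rats. Rnf111, a ubiquitin ligase of TGF-beta signaling, read 8.39, 7.79 and 7.79 on the non-dependent and 9.08, 9.22, 9.01 and 8.94 on the dependent arrays of the VTA, a difference of 1.08. It was -0.55 in the NAcC and -0.34 in the NAcSh (interaction adjusted p = 2.61e-04, limma). Syt16, of the synaptotagmin family, differed by 1.11 in the VTA and by -0.31 to 0.18 in the other regions (adjusted p = 5.93e-04). Ptprj, a receptor tyrosine phosphatase, differed by 1.22 in the VTA and by -0.45 in the NAcSh (adjusted p = 0.00175). In the VTA the naive arrays of Syt16 (9.51 to 10.02) and Ptprj (9.01 to 9.85) lay between or across the groups. The VTA result rests on 3 non-dependent arrays, since the fourth was left out. Without the VTA the brain-wide differences of all 3 genes turned negative, to -0.066, -0.087 and -0.058.

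At the threshold, Xrcc6, a DNA repair protein, was the last gene called (-0.16, adjusted p = 0.0491) and Fam168a the next one (0.21, adjusted p = 0.0501). Technical values were compared between the groups as well. The hybridization control mean was 9.71 on non-dependent and 9.46 on dependent arrays (exact permutation p = 0.143 over the linked sets), a difference of -0.25 beside a median size of 0.26 for the called genes, and the difference between the 3' and 5' probe sets of Gapdh 1.74 and 1.62 (p = 0.0571, exact). The smallest p that 4 against 4 can give is 0.0286. The Actb 3' to 5' difference was 7.99 and 7.93, and the array median 3.88 in both groups, with 0.0065 between them (p = 0.0571, exact). The part of the RNA quality in the differences was not tested beyond the fit with these values as covariates, in which 130 genes were called, 89 of the 108 among them.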

How the data were processed

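The authors made the deposited log2 values from the scanned rat arrays with GCRMA 2.36.0 under R 3.03, per the labels; RNA (30 or 50 ng, depending on the region) had been amplified and labeled with biotin. A later selection of probe sets described by the study is not part of these values. Of 31099 probe sets, 20832 name 1 gene and were used; 436 name several and 9831 none. The brightest probe set stood for each of 14218 genes, and genes whose 8 region means averaged above 4 were tested (8734). Differences were fitted with limma 3.58.1 in R 4.3.3, with region fixed and the replicate number of a group as a random block (duplicateCorrelation), and adjusted by Benjamini-Hochberg at 0.05. The paper compared groups by t-statistics within regions. Averages per number or linked set, a group by region interaction and exact permutation tests of 70 arrangements were added. Arrays were linked, motifs searched and figures drawn in Python 3.11.15 with numpy 2.4.6, pandas 2.3.3 and matplotlib 3.10.9. The fits by replicate number were also run on simulated data in which rats followed the numbers, unlike in the real arrays. The linked fits were not simulated. Replicate numbers paired neither groups (same-numbered arrays of 1 region had a mean correlation of 0.028, range -0.335 to 0.463) nor regions. Arrays carry no count of molecules, and their number limits the precision. Named genes are the 10 per direction with the smallest p among those called, up to 3 called members per gene list, Nr3c1, Nr3c2 and Psip1, the 3 smallest interaction p, and the genes beside the threshold; others named were chosen after their values were seen. The comparison, the lists and the tests were chosen with earlier results of these data known.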

Additional observations from a re-analysis of the deposited data

Results flagged for a closer look

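Over the genes described, 72 groups of 4 linked sets were examined for a set far from the others, and 2 had one; chance marks about 1 in 20 such groups. For Xiap, dependent set B lay at 7.83, with the next set at 7.58 and the lowest at 7.54. For Nrcam, on the probe set used, dependent set B lay at 10.5, with the next at 10.35 and the lowest at 10.32. The effect of group differed between regions, by limma's interaction test, for Rnf111 (adjusted p = 0.000261), Syt16 (adjusted p = 0.000593) and Ptprj (adjusted p = 0.00175), each with its largest difference in the VTA.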

How the results depend on the processing

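The count of 108 genes called between non-dependent and dependent arrays was 45 with arrays independent, 229 with array weights, 5 with all 64 arrays and 36 with the linked block, an alternative chosen after seeing the data like all those with linked or put-back arrays. Leaving out 1 region gave 60 (NAcC), 32 (dlBNST), 54 (CeA) and 68 (VTA), and 87 to 160 for the others. Putting back 1 left-out array gave 65 (BLA non-dependent 3), 7 (CeA non-dependent 2), 47 (vBNST dependent 1) and 45 (VTA non-dependent 2). Without 1 replicate number it ran from 33 (non-dependent 1) to 210 (dependent 3), and under the linked block without 1 linked set from 13 (non-dependent A) to 61 (dependent A), with 20, 53 and 16 without dependent B, C and D and 37, 32 and 25 without non-dependent B, C and D. Without the mPFC, CeA and VTA the linked block gave 4, and without the dlBNST, vBNST and BLA 8. With the replicate number as a block across the groups, which share only the number, 241 genes were called, all 108 among them, and the averages over numbers then gave 2 genes in place of 8, 0 of them shared; no call is read from this pairing.

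The 8 genes called over numbered averages became 21 with quantile normalization, 0 with all 64 arrays, 2 with naive arrays in the fit, 0 over linked sets and 0 over linked sets without the mPFC, CeA and VTA or without the dlBNST, vBNST and BLA. Without the mPFC, NAcC, NAcSh, dlBNST, CeA and VTA in turn they became 26, 1, 5, 0, 0 and 1, and without 1 number 0 to 45. The 16 interaction genes became 26 with no filter, 7 with the mean of probe sets and 0 with all 64 arrays.

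Of the 20 leading genes, 19 kept their direction in every setting run, and 0 kept both direction and threshold in all of them; Nrcam turned to 0.11 (adjusted p = 0.0802) with the mean of probe sets. Ahsa1 turned to 0.067 with all 64 arrays and to 0.056 with CeA non-dependent 2 put back, where Ndufb2 turned to 0.011. Syt16 turned to -0.0041 with array weights. Without the VTA, Rnf111, Syt16 and Ptprj turned to -0.066, -0.087 and -0.058, and under the linked block without the mPFC, CeA and VTA to -0.17, -0.12 and -0.11. Nr3c1, Nr3c2 and Psip1 lie near 0 and changed sign often, never past the threshold. Nr3c1 was -0.0043 with median scaling, -0.00050 with the mean of probe sets, -0.012 with quality covariates, -0.0074, -0.011, -0.0023, -0.017 and -0.030 without the mPFC, dlBNST, vBNST, BLA and VTA, -0.045 with vBNST dependent 1 put back and -0.029 and -0.048 under the linked block without the mPFC, CeA and VTA and without the dlBNST, vBNST and BLA. Nr3c2 was 0.15 with all 64 arrays, 0.028 with covariates, 0.0026, 0.035 and 0.019 without the dlBNST, BLA and VTA, 0.021, 0.15 and 0.013 with the BLA, CeA and VTA arrays put back, and 0.071 under the linked block without the dlBNST, vBNST and BLA. Psip1 was 0.025 with the mean of probe sets, 0.24 with all 64 arrays, 0.036 and 0.025 without the NAcC and NAcSh, and 0.017, 0.26 and 0.010 with the BLA, CeA and VTA arrays put back. Without 1 replicate number they ran from -0.028 to 0.025, -0.053 to 0.022 and -0.035 to 0.020, and under the linked block without 1 linked set from -0.026 to 0.027, -0.059 to 0.029 and -0.034 to 0.022. Of the latter, Nr3c1 was -0.0081, -0.0035, -0.011 and -0.026 without dependent A and C and non-dependent B and D, Nr3c2 0.020, 0.029 and 0.028 without dependent A and C and non-dependent C, and Psip1 0.0090, 0.022 and 0.0046 without dependent B and non-dependent A and B.
The cause of these changes was not tested. With 4 rats per group and linked sets of arrays in place of known rats, the number of animals and the dim signal of some genes limit what can be called.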
